A study of Mus musculus with 24 samples.

Results

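Cytosolic ribosomal proteins were followed in bulk mRNA sequencing of hippocampal tissue from 24 adult female mice. Members were chosen by name, as genes called Rpl or Rps followed by a number, with an optional a, x or l, or called Rplp0, Rplp1, Rplp2 or Rpsa. A member also had to have at least 10 counts in every mouse. The count table held 46983 genes. Of these, 81 matched by name and 77 were kept, namely 42 genes named for the large subunit, 3 for the P stalk and 32 for the small subunit. The 32 include Rps4l, which is annotated as a pseudogene. The rule itself used no difference between groups, but it was set with earlier results of these data known. The tissue was punched from the dorsal and the ventral hippocampus, and the mice formed 4 groups of 6. Fkbp5 lox/lox mice carried loxP-flanked Fkbp5 without Cre and served as wild types. Fkbp5 Nex mice carried the same flanked gene together with Cre recombinase from the Nex locus (today Neurod6), which is active in glutamatergic forebrain neurons. The genotypes are called lox/lox and Nex from here on. Each was reared under standard conditions (control) or under early life stress (ELS), in which bedding and nesting material was restricted in the first postnatal days. All mice were labelled C57BL/6, and nothing in the labels names a litter, a sequencing run or a day.

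Nearly every ribosomal protein is present once in each ribosome, so the messengers are needed in similar amounts and tend to rise and fall together. Most of them begin with a cytosine followed by a run of pyrimidines, the 5′ TOP (terminal oligopyrimidine) motif, through which the kinase mTORC1 and the RNA-binding protein LARP1 govern their translation. The genome also holds many processed pseudogenes of ribosomal proteins whose sequence is close to that of the working gene. FKBP51, the protein made from Fkbp5, is a co-chaperone of the glucocorticoid receptor.

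RefSeq promoters (GRCm38.p6, 250 bases before to 50 after the start) were matched for 56 of the 77 members. A run was a C followed by pyrimidines only, at least 8 bases in all on the strand of the gene. It was sought from 20 bases before to 40 bases after each annotated start. At any of their starts, 38 of the 56 members (67.9%) had such a run, against 19.6% of 27025 gene symbols in all. A gene with several starts had more chances to match. CCGGAAG or its reverse complement CTTCCGG, the core bound by ETS factors, stood in 24 of the 56 (42.9%), against 9.93% of all. A CTTCCGG can overlap a pyrimidine run. These are matches of letters in a window and not shown to be sites. The following 30-base windows are shown because they carry the motif found in most of the matched members. Most are of genes described further on, and Rpl27a is shown for its long run. They are written 5′ to 3′ on the strand of the gene, with the pyrimidine run in capitals.
Rps6, chr4:86857347-86857376, minus strand: aagtcgggCCTCTTTTTCgtgacgcctccc
Rps27, chr3:90213629-90213658, minus strand: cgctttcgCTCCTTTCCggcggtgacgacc
Rplp2, chr7:141447639-141447668, plus strand: gtcagcgtCTTCCTTTCgccgccggacgcc
Rpl11, chr4:136053358-136053387, minus strand: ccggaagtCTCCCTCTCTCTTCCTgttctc
Rpl28, chr7:4792955-4792984, plus strand: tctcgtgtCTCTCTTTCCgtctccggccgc
Rpl35, chr2:39005117-39005146, minus strand: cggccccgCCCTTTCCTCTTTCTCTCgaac
Rpl27a, chr7:109519183-109519212, plus strand: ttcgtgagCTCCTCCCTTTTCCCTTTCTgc
Rps27l, chr9:66946066-66946095, plus strand: cctctccaCTCCTCCCCgccgcctctatcc
The run had 9 bases in Rps27, Rplp2 and Rps27l and 20 in Rpl27a.

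Total counts ran from 18347283 to 26555623 per mouse. Levels are given in CPM, counts scaled to library size after correction by the trimmed mean of M values (TMM). Fkbp5 had a median of 52.0 CPM in lox/lox control, 58.8 in lox/lox ELS, 12.5 in Nex control and 12.0 in Nex ELS mice, and the genotypes did not overlap. All 8 markers of CA pyramidal neurons and all 6 of dentate granule cells had counts in every mouse. Markers of the choroid plexus ranged widely, and Ttr had between 5 and 95942 counts. Markers of other cells also differed between mice. Their mean log2 CPM ran from 3.20 to 6.44 for dentate granule cells and from 5.24 to 6.73 for CA pyramidal neurons. It ran from 6.89 to 9.03 for oligodendrocytes and from 2.53 to 5.16 for the thalamus. The library of Nex control mouse 52 stood apart, at -3.75 SD on the second principal component.

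Rplp1, an acidic protein of the stalk that recruits translation factors, had the highest level per length, a median of 737 CPM per kilobase of exon. Rps15 followed at 330, Rpl4 at 215, Rpl36 at 192 and Rpl41, the smallest ribosomal protein, at 192. At the other end stood Rpl23a at 7.02, Rpl35 at 8.47, Rps27l at 13, Rpl21 at 18.8 and Rps4l at 20 CPM per kilobase. The highest level was 105 times the lowest. This ranking counts the reads on each gene alone. Rpl23a had a median of 5.94 CPM itself and 25.8 CPM on its copies, which the ranking leaves out. Length here was the union of all annotated exons. The order depended on the length used. With all reads of a gene divided by the length of its coding sequence alone, Rpl41 ranked first at 1622 CPM and Rplp1 second at 1075. This raises genes with a short coding sequence. Rps15 then had rank 5, Rpl4 rank 20 and Rpl36 rank 51, while Rpl23a, Rpl35 and Rps27l kept the lowest places.

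**Figure D1:**
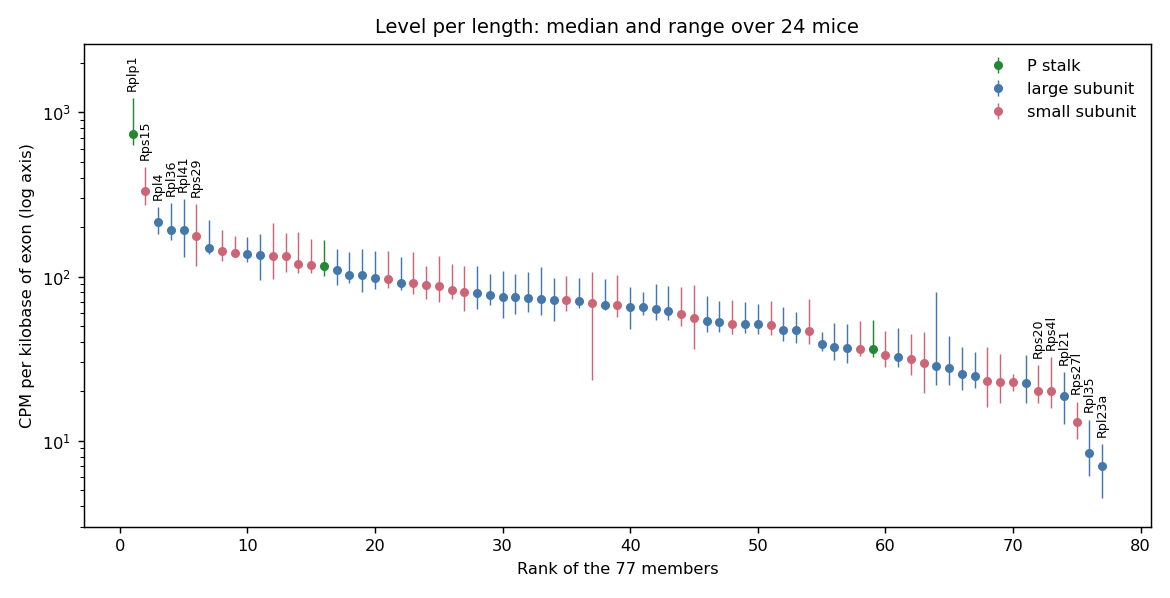
Level of each of the 77 ribosomal protein genes in CPM per kilobase of exon (log axis), ranked. Points are medians over 24 mice, lines run from the lowest to the highest mouse and colours mark the subunit. Rplp1 stands at 737 and Rpl23a at 7.02, and Rpl17 and Rps27 have the longest lines.

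Some of the lowest members are genes of a special kind. Rps27l is a p53-induced paralogue of Rps27, and none of its 100-base windows was found in another annotated transcript. Rps4l is annotated as a transcribed processed pseudogene, with a median of 18.8 CPM against 191 for its X-linked relative Rps4x. Rpl23a and Rpl35 shared 80.0% and 30.7% of their windows with other transcripts. The 4 names left out were Rpl3l, the skeletal muscle form of Rpl3, with 3 to 22 counts per mouse, Rpl39l with 0 to 4, Rpl10l, a testis form of Rpl10, with 0 in every mouse, and Rpl24 with 4 to 17. A count of 0 leaves room for up to 3 counts per library, by counting error only. Rpl24 is a core protein of the large subunit, and 80.1% of its windows were found in other transcripts as well.

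The members rose and fell together from mouse to mouse. Over deviations from the group means in 24 mice, the median correlation between pairs of members was 0.816. Between a member and any other tested gene the median was -0.0073. These values share libraries and depth and are descriptions. Against the mean of the other 76, the median correlation of a member was 0.915. Rpl31 was at 0.98 and Rpl11 at 0.97, and 9 members stood under 0.7, with Rps4l at 0.19, Rpl17 at 0.27 and Rps27 at 0.43 the lowest. Without mouse 52 the median between pairs was 0.701.

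**Figure D2:**
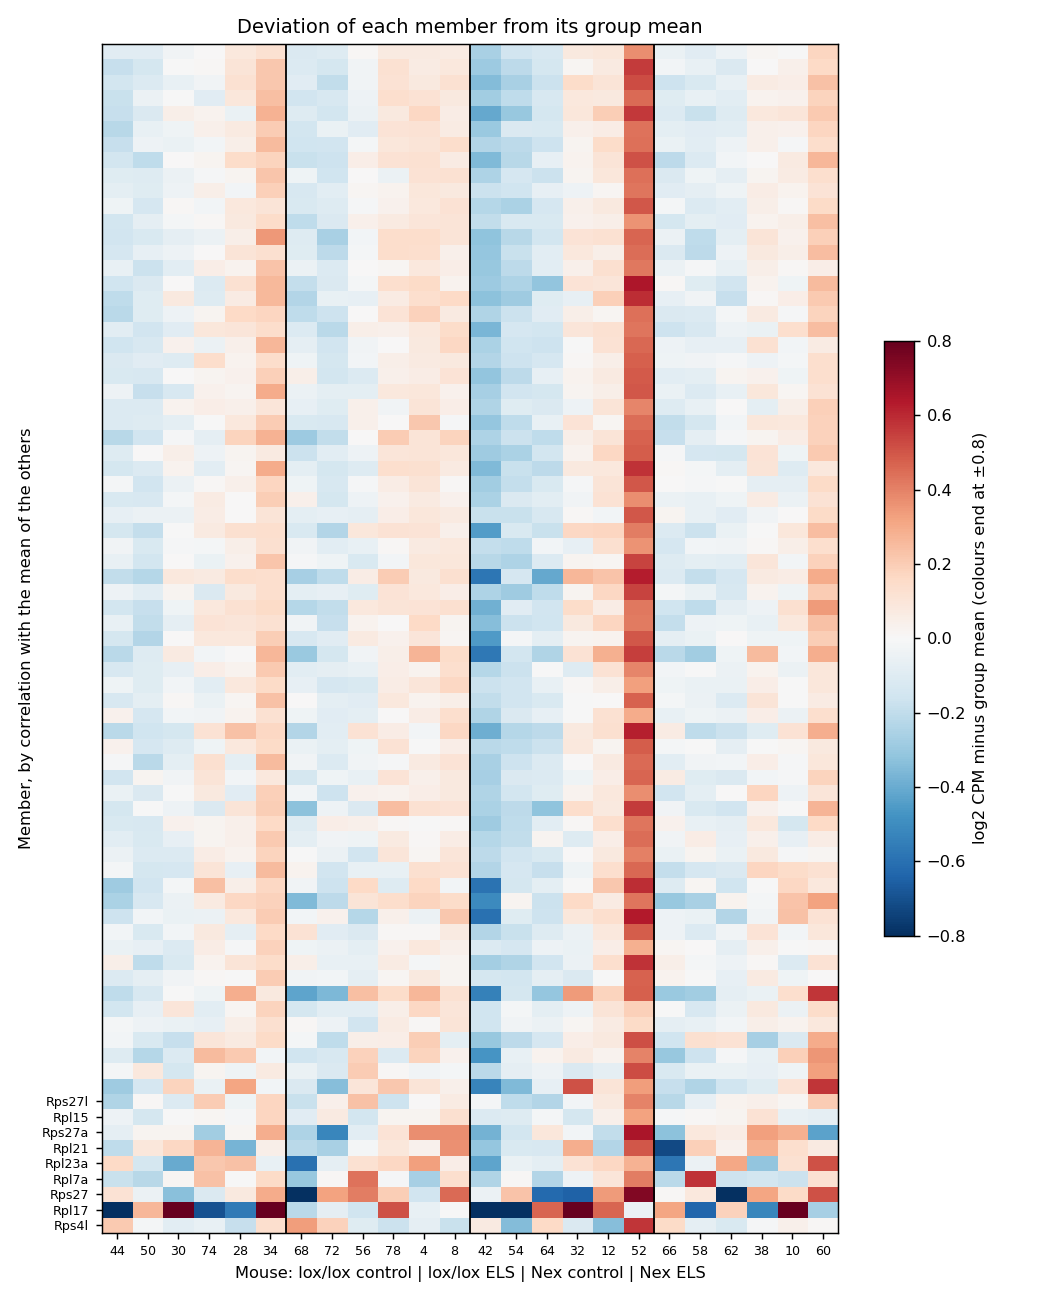
Deviation of log2 CPM from the group mean for 77 members (rows, ordered by correlation with the mean of the others, with names for the 9 under 0.7) in 24 mice (columns, by group). Red is above and blue below the group mean. Mouse 52 is red in nearly every row and mouse 42 mostly blue, while Rps27, Rpl17 and Rps4l follow patterns of their own.

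Mouse 52, a Nex control, had the highest CPM of all 24 mice for 71 of the 77 members. Mouse 42, also a Nex control, had the lowest for 48. Members took 1.49% of all counts in mouse 52 and 0.908% in mouse 42. The lowest, median and highest shares were 1.03%, 1.10% and 1.21% in lox/lox control mice and 0.968%, 1.05% and 1.13% in lox/lox ELS mice. They were 0.908%, 1.06% and 1.49% in Nex control and 0.989%, 1.05% and 1.16% in Nex ELS mice. All 4 groups overlapped, and the Nex controls, which held both extreme mice, spanned the widest range. The mean log2 CPM of the members was 6.86 ± 0.11 (SD, n = 6) in lox/lox control, 6.77 ± 0.098 in lox/lox ELS, 6.85 ± 0.26 in Nex control and 6.80 ± 0.099 in Nex ELS mice. Without mouse 52 the Nex controls had 6.76 ± 0.16.

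**Figure D3:**
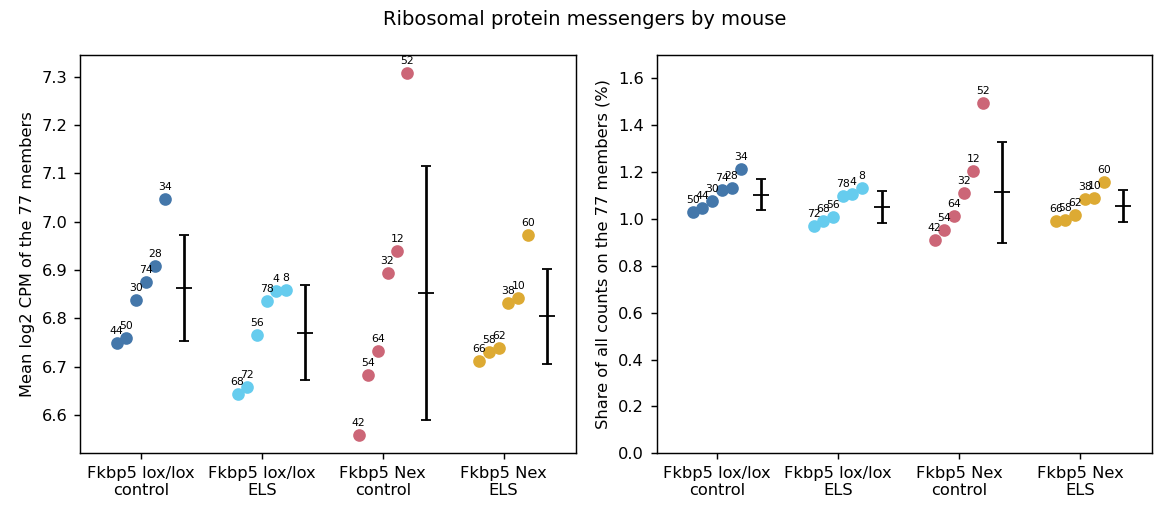
Mean log2 CPM of the 77 members (left) and their share of all counts in percent (right) for each of 24 mice. Black bars give the mean and SD of each group of 6. Mouse 52 at 7.31 and 1.49% lies above every other mouse, and the groups overlap.

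Other measures moved with the members. Malat1, Meg3 and Snhg11, noncoding RNAs kept as signs of RNA quality and library, had their lowest mean log2 CPM in mouse 52, at 10.1 against 10.5 to 10.8 in the other mice. Over deviations from the group means (n = 24), that mean correlated with the members' mean at r = -0.64. For 5 microglial markers r was 0.63, for 5 astrocyte markers 0.60, for 6 dentate markers 0.51 and for 8 pyramidal markers 0.073. For 6 oligodendrocyte markers it was -0.36, and for 4 of 6 choroid plexus markers -0.49. For interneuron markers it was 0.19, for endothelium 0.15, for thalamus -0.13 and for ependyma -0.27. The share of counts on genes named mt-, also kept as a sign of RNA quality, ran from 5.12% to 7.47% over all mice. Its r with the members' mean was 0.59. The astrocyte markers ranged from 7.47 to 7.91 in lox/lox control, 7.55 to 7.79 in lox/lox ELS, 7.52 to 8.75 in Nex control and 7.37 to 7.98 in Nex ELS mice (mean log2 CPM). The part of these measures in the members' levels was not tested. In bulk tissue, fewer cells of a type and less RNA per cell cannot be told apart.

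Members differed in how steady they were within groups. The smallest SDs of log2 CPM were 0.084 for Rps15a, 0.10 for Rps6, a target of S6 kinase, and 0.12 for Rpl15, 0.12 for Rpl4 and 0.12 for Rpl22. The median over members was 0.17 and that over all tested genes 0.18. The largest were 0.64 for Rpl17, 0.52 for Rps27 and 0.31 for each of Rps27a, Rps29 and Rpl23a. Rps6 had 209 to 280 CPM over all mice, 1.34 times from lowest to highest, whereas Rps27 had 24.5 to 111 CPM, 4.54 times.

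Several of the most variable genes had near-identical copies elsewhere, on which counts were high in mice where the gene was low. In all, 69 of the 77 members shared a 100-base window with a pseudogene or a gene named as a copy in the count table, 385 copies together, and the copies of 19 members held at least 15% as many reads as the member. Rpl17 ran from 29.1 to 106 CPM, its copies, chiefly Rpl17-ps10, from 35.7 to 129, and their sum from 115 to 183. The lox/lox control mouse 30 had 106 CPM on Rpl17 and 35.7 on the copies, whereas mouse 44 of the same group had 31.1 and 104. For Rps27 the copy was Rps27rt, annotated as protein coding. The lox/lox ELS mouse 68 had 24.5 CPM on Rps27 and 68.6 on Rps27rt, while mouse 72 of that group had 72.0 and 11.0, and the sum ran from 77.8 to 132 CPM over all mice. Rps27a encodes ubiquitin fused to a ribosomal protein. Its copies ran from 11.6 to 71.4 CPM, highest in Nex ELS mouse 60, which had the lowest Rps27a of its group at 74.7 CPM.

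**Figure D4:**
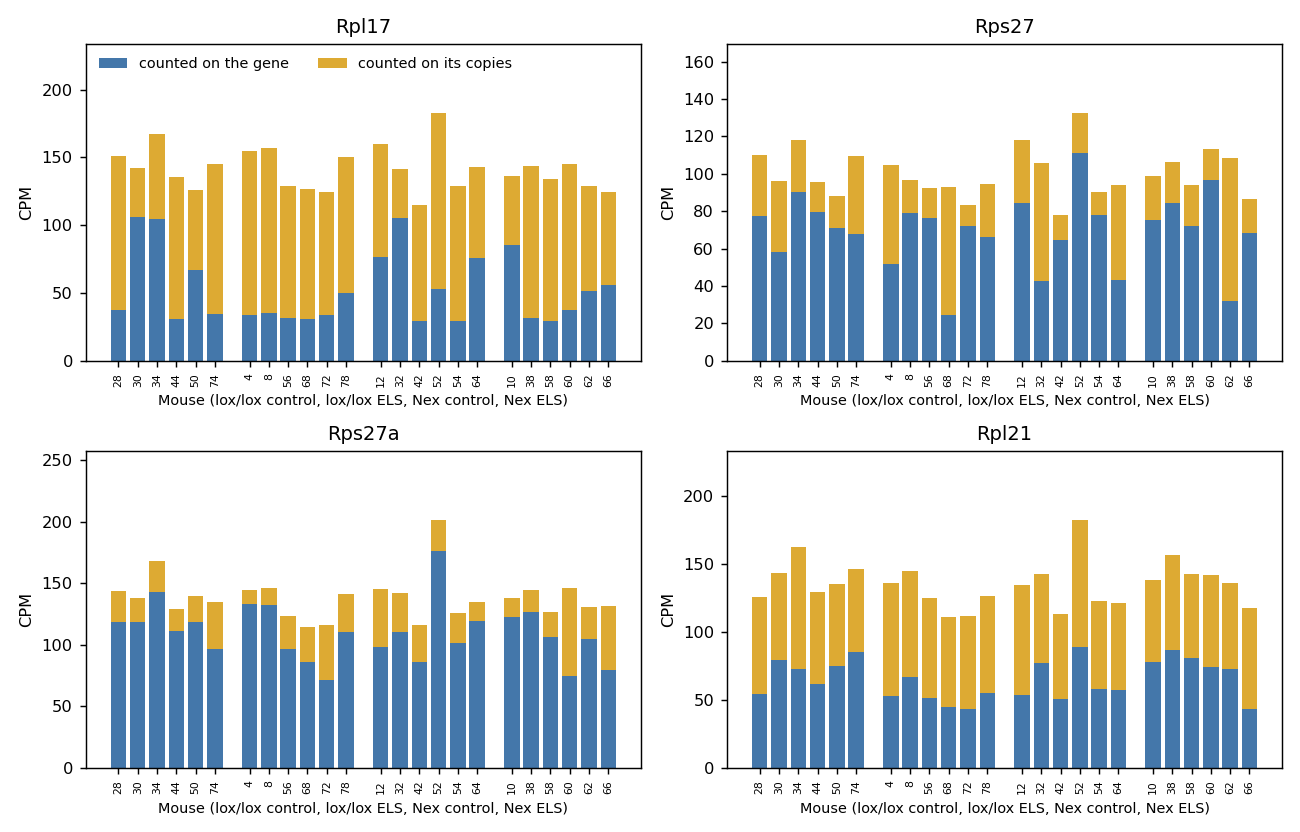
Reads counted on Rpl17, Rps27, Rps27a and Rpl21 (blue) and on their annotated copies (yellow), stacked, in CPM for each of 24 mice by group and mouse number. The split between gene and copies varies from mouse to mouse, most clearly for Rpl17 and Rps27.

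With the counts of the copies added, the SD within groups went from 0.64 to 0.16 for Rpl17, from 0.52 to 0.18 for Rps27, from 0.31 to 0.18 for Rps27a, from 0.31 to 0.16 for Rpl23a and from 0.29 to 0.17 for Rpl21. The correlation with the mean of the other members went from 0.27 to 0.92 for Rpl17, from 0.43 to 0.90 for Rps27, from 0.58 to 0.95 for Rps27a, from 0.53 to 0.86 for Rpl23a and from 0.55 to 0.85 for Rpl21. Rpl15, Rpl7a, Rps27l and Rps4l were then the 4 members under 0.7. Rps29 had an SD of 0.31 with or without its copy. How reads that map to several places were counted is not given in the sources used here, so the level of a gene with copies is uncertain.

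No member passed a false discovery rate (FDR) of 2% in any of the 7 contrasts of genotype and rearing, by edgeR's quasi-likelihood test over 16209 genes with 5 surrogate variables or by DESeq2's Wald test. Surrogate variables are estimated from the counts to stand for variation other than the groups, though they need not be free of them, and the groups explained between 2.97% and 24% of each. By edgeR, 0% of all genes passed for ELS in lox/lox mice, in Nex mice and over both, 0.0494% for genotype in controls, 0.0123% for genotype in ELS mice, 0.117% for genotype over both rearings and 0% for the interaction. By DESeq2 it was 0.00617% for ELS in lox/lox mice, 0.327%, 0.0247% and 0.432% for the genotype contrasts in the same order, and 0% for the others. No member had groups that did not overlap in any of the 4 contrasts of single groups, against 0.0679% to 0.173% of all genes. The contrasts share mice.

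**Figure D5:**
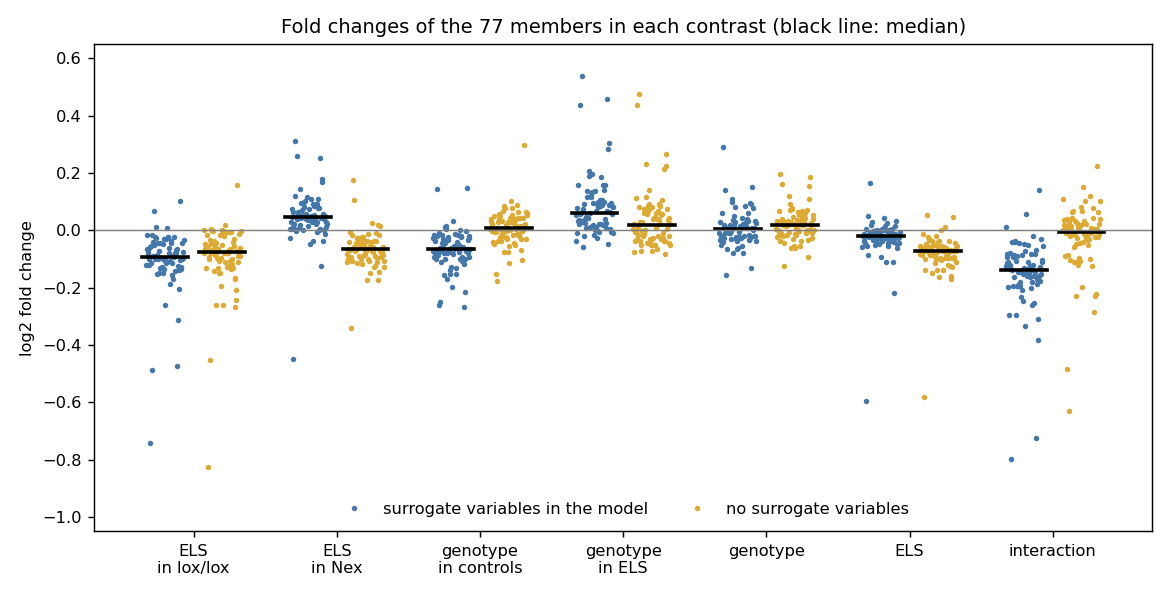
log2 fold change of each of the 77 members (points) in 7 contrasts, from the model with surrogate variables (blue) and without them (yellow). Black lines are medians. For ELS in Nex and for genotype in controls the median changes sign between the models, and for the interaction it goes from -0.14 to -0.0058.

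For genotype over both rearings, the members had a median log2 fold change (Nex minus lox/lox) of 0.0031 and 37 of 77 below 0, against 50.8% of all genes. Without surrogate variables the median was 0.019, with 25 of 77 below 0 against 49.0% of all genes. The 95% interval of 76 members lay within 0.5 of 0, with Rpl17 the exception. At an unadjusted p under 0.05 stood 2 members, both lower, against 6.44% of all genes lower. They were Rps27l at -0.13 (SE 0.054, adjusted p = 0.36) and Rpl5, which with Rpl11 carries the 5S RNA and binds Mdm2, at -0.063 (SE 0.030, adjusted p = 0.43). Next by p stood Rpl7 at -0.063. Higher by p stood Rpl35a at 0.097, Rps29 at 0.15 and Rps16 at 0.086. For ELS over both genotypes the median was -0.021, with 62 of 77 below 0 against 47.8% of all genes. Without surrogate variables it was -0.072, with 73 of 77 below 0 against 50.5% of all genes. Here 76 intervals lay within 0.5, and 1 member, Rpl17, stood at p under 0.05, against 1.58% of all genes lower. Rpl17 was at -0.60 (SE 0.29, adjusted p = 0.9995) and at -0.048 with its copies added. Rps27a was at -0.22, or -0.080 with copies added, and Rps4x at -0.063. Higher by p stood Rpl23a at 0.16, or 0.049 with copies added, Rplp2 at 0.043 and Rpl28 at 0.030, the last at -0.035 without surrogate variables.

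Among lox/lox mice, 73 of the 77 members were fitted lower after ELS, with a median log2 fold change of -0.094 against 0.0025 over all genes, of which 48.6% were below 0. At p under 0.05 stood 8 members, all lower, against 2.01% of all genes lower. Without surrogate variables it was 2 members, against 1.03%, with a median of -0.074 and 72 of 77 below 0 against 49.7% of all genes. Rpl21, a large subunit protein, had the smallest p. It had 54.7, 74.1 and 85.3 CPM in lox/lox control mice (lowest, median and highest) and 43.2, 52.1 and 66.6 CPM in lox/lox ELS mice. The ranges overlapped, and the log2 fold change was -0.49 (SE 0.17, adjusted p = 0.95), or -0.19 with copies added. Rps4x was at -0.13 (SE 0.052, adjusted p = 0.95) and Rpl5 at -0.10 (SE 0.045, adjusted p = 0.95). Furthest from 0 was Rpl17 at -0.74 (SE 0.39, adjusted p = 0.95), or -0.079 with copies added. The 4 fitted as higher were Rps4l (0.10), Rpl23a (0.068), Rpl28 (0.010) and Rplp0 (0.0080). In fits that left out a mouse, Rpl23a and Rpl28 changed sign and Rps4l did not, while Rplp0 was not followed in this contrast. Leaving out a mouse moved the number at p under 0.05 between 1 (without lox/lox control mouse 34) and 40 (without lox/lox control mouse 44), with none past the FDR. Every fit that left out a mouse, here and below, filtered the genes and estimated its surrogate variables anew, 4 or 5 of them. Such moves therefore need not come from the values of that mouse alone.

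Among Nex mice, 68 of the 77 members were fitted higher after ELS, with a median of 0.045, and 47.7% of all genes were below 0. Without surrogate variables 72 members were below 0, against 52.1% of all genes, and the median was -0.067. Without these and without mouse 52 it was 0.038. No member stood at p under 0.05, against 2.8% of all genes, but 12 did without Nex control mouse 32, with none past the FDR. Rplp2, the partner of Rplp1 in the stalk, had the smallest p. It had 67.1, 74.2 and 112 CPM in Nex control mice and 71.7, 75.3 and 98.0 CPM in Nex ELS mice. The ranges overlapped, and the log2 fold change was 0.11 (SE 0.054, adjusted p = 0.9996), or -0.013 without surrogate variables. Rpl21 was at 0.31, or 0.14 with copies added, and Rps28 at 0.18, or -0.015 without surrogate variables. Lower stood Rpl17 at -0.45, Rplp0 at -0.049 and Rps27a at -0.13, of which Rpl17 was at -0.017 and Rps27a at 0.022 with copies added.

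Among control mice, 70 of the 77 members were fitted lower in Nex than in lox/lox, with a median of -0.064, against 50.6% of all genes below 0. Without surrogate variables the median was 0.0080, and without these and mouse 52 it was -0.086. Mouse 52 was highest of all for 71 of the 77 members, so leaving it out had to lower the Nex control mean of these. Mouse 42, the lowest for 48 members, was not left out of the model without surrogate variables. At p under 0.05 stood 5 members, all lower, against 4.92% of all genes lower. Rpl5 had 180, 196 and 226 CPM in lox/lox control mice and 155, 178 and 240 CPM in Nex control mice. The ranges overlapped, and the log2 fold change was -0.14 (SE 0.042, adjusted p = 0.27), or -0.076 without surrogate variables. Rps27l had 9.82, 11.5 and 13.4 CPM in lox/lox control mice and 9.14, 10.6 and 14.1 CPM in Nex control mice, also overlapping, with a log2 fold change of -0.22 (SE 0.076, adjusted p = 0.40). The other three were Rpl7 at -0.13, Rpl36a at -0.17 and Rpl26, known to bind the p53 messenger, at -0.11. Higher by p stood Rps4l at 0.15, Rplp0 at 0.032 and Rpl17 at 0.14. Rpl17 was at -0.033 with copies added and ran from -0.34 to 0.47 when a mouse was left out, and Rplp0 from -0.012 to 0.067. Leaving out a mouse moved the number at p under 0.05 between 1 (without lox/lox control mouse 74) and 34 (without Nex control mouse 32).

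Among ELS mice, 66 of the 77 members were fitted higher in Nex than in lox/lox, with a median of 0.060, or 0.017 without surrogate variables, and 51.1% of all genes were below 0. At p under 0.05 stood 6 members, all higher, against 2.93% of all genes higher. Without surrogate variables it was 1 member, against 1.67%, and 32 of 77 were below 0, against 50.9% of all genes. With surrogate variables the 6 were Rpl21, Rpl35a, Rps16, Rps23, Rps28 and Rps29. Rpl21 had 43.1, 76.3 and 86.6 CPM in Nex ELS mice, and every one of these mice but mouse 66 lay above the highest lox/lox ELS mouse at 66.6 CPM. Its log2 fold change was 0.54 (SE 0.16, adjusted p = 0.59), or 0.21 with copies added. Rps28 had 30.2, 38.1 and 41.7 CPM in lox/lox ELS mice and 37.2, 41.8 and 52.2 CPM in Nex ELS mice, overlapping, with a log2 fold change of 0.28 (SE 0.10, adjusted p = 0.70). Rpl35a was at 0.19 (SE 0.073, adjusted p = 0.70). Lower by p stood Rpl10a at -0.038, Rps27l at -0.046 and Rplp0 at -0.025, which ran from -0.057 to 0.013 when a mouse was left out. Leaving out a mouse moved the number at p under 0.05 between 1 (without lox/lox ELS mouse 68) and 22 (without Nex control mouse 32). Mouse 32 is not in this contrast, so leaving it out acted only through the shared fit and its surrogate variables.

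The interaction subtracts the response to ELS of Nex mice from that of lox/lox mice. It was fitted below 0 for 74 of the 77 members, against 50.0% of all genes, with a median of -0.14. Without surrogate variables 41 members were below 0, against 47.2% of all genes, and the median was -0.0058. Without these and mouse 52 it was -0.11. At p under 0.05 stood 14 members, all lower, against 2.07% of all genes lower. Without surrogate variables it was 1 member, Rpl21, against 0.648%. Rpl21 was at -0.80 (SE 0.22, adjusted p = 0.999), at -0.63 without surrogate variables and at -0.33 with its copies added. Rps28 was at -0.38 (SE 0.14, adjusted p = 0.999), and Rps23, a protein of the decoding centre, at -0.25 (SE 0.099, adjusted p = 0.999). Rps27 was at -0.72, and at -0.21 with its copies added. Higher stood Rps4l at 0.14, Rplp0 at 0.057 and Rpl10a at 0.010, the last from -0.021 to 0.034 when a mouse was left out. Of the 77 intervals, 65 lay within 0.5 of 0. Leaving out a mouse moved the number at p under 0.05 between 3 (without lox/lox ELS mouse 68) and 44 (without Nex control mouse 32), and the median between -0.21 and -0.11.

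The surrogate variables carried much of the members' common movement. The first 3 explained 22.7%, 24.5% and 27.1% of the variance of the members' mean level, and the other two 0.874% and 2.25%. With all 5 regressed out, the median correlation between members was 0.502.

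In the interaction the median log2 fold changes were -0.13 over 42 large subunit genes, -0.15 over 32 small subunit genes and -0.14 over the 3 stalk genes. For ELS among lox/lox mice they were -0.093, -0.095 and -0.025. For genotype the medians were -0.0075 for the large and 0.012 for the small subunit, of opposite sign, and for genotype among ELS mice 0.051 and 0.082. The difference between subunits was not tested. Of the stalk genes, Rplp0, which anchors the stalk to the ribosome, had 178, 198 and 217 CPM in lox/lox control mice, 178, 193 and 199 CPM in lox/lox ELS mice, 169, 201 and 277 CPM in Nex control mice and 168, 183 and 206 CPM in Nex ELS mice. Rplp1 had 350, 378 and 469 CPM in lox/lox control mice, 319, 365 and 404 CPM in lox/lox ELS mice, 313, 373 and 610 CPM in Nex control mice and 336, 371 and 445 CPM in Nex ELS mice. For both the groups overlapped, with mouse 52 highest of all.

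Group medians of members with well-known roles are given in the order lox/lox control, lox/lox ELS, Nex control and Nex ELS. Rps6 had 222, 226, 223 and 220 CPM. Rpl3, which reaches into the peptidyl transferase centre, had 439, 435, 432 and 428 CPM. Rpl11, the partner of Rpl5, had 144, 144, 148 and 143 CPM. The medians of these genes lay close together. Rpl13a, known from interferon-driven silencing of messengers, had 166, 158, 161 and 154 CPM. Rpl22, which also binds RNA outside the ribosome, had 116, 114, 115 and 110 CPM. Rps19, mutated in Diamond-Blackfan anaemia, had 109, 103, 103 and 105 CPM. Among proteins studied for selective translation, Rpl38 had 74.3, 71.8, 75.8 and 72.8 CPM and Rps25 had 139, 134, 136 and 133 CPM. Rpsa, also known as a laminin receptor, had 302, 295, 280 and 284 CPM. Rpl10, which joins the large subunit late, had 218, 208, 210 and 209 CPM. Rpl39, at the exit tunnel, had 54.2, 49.9, 53.5 and 52.8 CPM, and Rpl41 had 243, 208, 224 and 224 CPM. Rps14, a small subunit protein, had 211, 204, 209 and 210 CPM. None of these passed the FDR in any contrast.

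Genes related to the members were read beside them, and 0 genes of any list passed the FDR in any contrast. The mean level of 7 ribosomal proteins with names outside the rule followed that of the members at r = 0.96 over deviations from group means, and their median interaction was -0.079, or 0.0053 without surrogate variables. Rps3a1 was at -0.17 (adjusted p = 0.999) in the interaction and Rpl7l1 at -0.065 (adjusted p = 0.46) for genotype. The 21 other TOP messengers followed at r = 0.94, with a median interaction of -0.041, or 0.034 without surrogate variables. Among them Btf3 was at -0.11 (adjusted p = 0.12) and Vim at 0.24 (adjusted p = 0.13) for genotype. For 77 tested mitochondrial ribosomal proteins r was 0.69 and the median interaction -0.020, or 0.013 without surrogate variables. Mrps30 was at -0.22 (adjusted p = 0.17) and Mrps6 at -0.18 (adjusted p = 0.18) for genotype. For 34 ribosome assembly genes r was 0.48 and the median -0.041, or -0.0094 without surrogate variables. Ltv1 was at -0.18 (adjusted p = 0.18) and Pno1 at -0.11 (adjusted p = 0.22) for genotype. For 36 translation factors r was 0.67 and the median -0.022, or 0.022 without surrogate variables. Eif4a1, the helicase of cap-dependent initiation, was at -0.089 (adjusted p = 0.13) and Eif3b at -0.063 (adjusted p = 0.32) for genotype.

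The 19 genes of mTORC1 and its effectors had r = -0.20 with the members. Their median interaction was 0.037, or -0.022 without surrogate variables. Myc was at -0.21 (adjusted p = 0.39) and Deptor, an inhibitor of mTOR, at -0.13 (adjusted p = 0.40) for genotype. The 77 tested nuclear subunits of oxidative phosphorylation, also short and abundant messengers, had r = 0.74. Their median interaction was -0.087, with 69 of 77 below 0, or -0.044 without surrogate variables. Among them Ndufa11 was at -0.14 (adjusted p = 0.14) for genotype and Ndufb2 at -0.18 (adjusted p = 0.9995) for ELS. Over 723 other protein-coding genes with a coding transcript under 1000 bases the median interaction was -0.055, and 0.0089 without surrogate variables. The part of transcript length in the members' fitted values was not tested.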

How the data were processed

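The authors' sequencing provider aligned reads with HISAT2 2.0.5 and counted them per gene with featureCounts 1.5.0-p3, and the authors deposited raw counts. Genome build, annotation, strand setting and handling of multi-mapping reads are not given in the sources used here. Genes reaching 10 counts in each mouse of a group (16209) were tested with edgeR 4.0.16 (TMM, quasi-likelihood, Benjamini-Hochberg, FDR 2%) in R 4.3.3, on group means and 5 surrogate variables (sva 3.50.0). DESeq2 1.42.0 was an alternative. The step was run on simulated counts with known changes. These counts held no variation shared between genes, so they do not check the fit with surrogate variables on such variation. Replicates are separate mice.

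Exon lengths and 100-base windows came from GENCODE M21 transcripts, promoters from RefSeq. Of the 77 members, 15 share exon positions with another protein-coding gene and 29 overlap a small nucleolar RNA, and counts of such genes are uncertain. Members and gene lists were chosen with earlier results of these data known, and the copies after the counts were seen. Genes named were the 3 with smallest p in each direction per contrast, the 5 highest and lowest per length and in SD, and a list by role. Other members, such as Rpl31, Rpl7a and Rpl27a, and the copies were named after their values were seen. Some members are not reported by name here.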

Additional observations from a re-analysis of the deposited data

Results flagged for a closer look

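A mouse was singled out where its gap to the next mouse exceeded 0.625 of the range of its group of 6. Of 68 sets of values examined this held for 8. Chance alone gives about 1 in 20 for a single set. The sets share mice and the members move together, so this rate cannot judge whether 8 is many. Rpl35a stood at 117 CPM in lox/lox control mouse 34, with the next mouse at 94.9. Rpl17 stood at 50.3 CPM in lox/lox ELS mouse 78, with the next at 35.2. Rplp2 stood at 87.2 CPM in lox/lox ELS mouse 56 and at 98.0 CPM in Nex ELS mouse 60, with the next mice at 76.4 and 76.2. In Nex control mouse 52, Rplp1 stood at 610 CPM, Rplp2 at 112 and Rps27a at 176, with the next mice at 422, 75.8 and 119. Rpl21 stood lowest at 43.1 CPM in Nex ELS mouse 66, with the next at 72.7.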

How the results depend on the processing

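No paired analysis was possible because the groups share no mouse numbers. The number of members past the FDR was 0 in every contrast under each alternative run: other size factors, other filters on low counts or none, DESeq2, an FDR of 5%, a model with no interaction, no surrogate variables, the 12 mice of a contrast alone (also without surrogate variables), copies added, and each mouse left out. No mouse lay beyond 2.5 SD on the first principal component, so leaving out such mice gave no value. Medians moved by less than the SD of the members' mean within groups (0.16). Every median of the main model was itself smaller in size than this SD, so it cannot show that they were stable. The interaction median went from -0.14 to -0.0058 without surrogate variables. ELS among Nex mice and genotype among controls changed sign without surrogate variables, to -0.067 and 0.0080, and were -0.064 and 0.0086 with the 12 mice alone, a fit that also had none. The cause was not tested. Genotype, at 0.0031, went to -0.0015 with no filter, to 0.019 without surrogate variables and to -0.041 without surrogate variables and mouse 52, and changed sign in 8 of 24 fits that left out a mouse. Over these fits the medians ran from -0.12 to -0.063 for ELS among lox/lox, 0.0084 to 0.093 for ELS among Nex, -0.12 to -0.043 for genotype among controls, 0.033 to 0.077 for genotype among ELS mice, -0.017 to 0.016 for genotype, -0.055 to -0.0030 for ELS and -0.21 to -0.11 for the interaction. Without the 10 genes with most reads, which makes the total smaller, the median share of counts was 1.18% in lox/lox control, 1.12% in lox/lox ELS, 1.14% in Nex control and 1.12% in Nex ELS mice. The correlation between members was 0.502 with surrogate variables regressed out, and the ratio of highest to lowest level per length 69.4 with the longest coding transcript. The models without mouse 52, the copies and the coding length were chosen after seeing the data.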
